A study of Ovis aries with 16 samples.

Results

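LOC114117239 and LOC114114830 are long non-coding RNA (lncRNA) loci of the sheep genome, chosen for their opposite behaviour in thigh muscle of adult ewes that had been exposed to bisphenol A (BPA) before birth. The first was picked because it was higher in BPA muscle and the second because it was lower. They are 2 of the 2973 loci in the lncRNA table and 2 of the 4920 transcripts in the 4 tables of the series. The files identify both by their gene numbers only, so no gene name, position or function is attached to either.

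The small RNA of liver (left lobe, at its tip) and of a thigh muscle, the vastus lateralis, was sequenced in 8 Suffolk ewes about 21 months old. The mothers of the 4 BPA animals (910, 918, 977 and 984) were injected under the skin every day with 0.5 mg per kg of BPA in corn oil, from day 30 to day 90 of gestation. Mothers of the 4 control animals (902, 908, 924 and 928) received corn oil in the same way. All 8 offspring had fasted for 48 hours and had received 2 prostaglandin injections 11 days apart, with tissue taken 24 hours after the second, in the late follicular phase. Each animal gave 1 liver and 1 muscle library, so there are 4 libraries in each of 4 groups.

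BPA is a plastics monomer that can bind oestrogen receptors, and the study asked what exposure of the fetus leaves behind in the metabolic tissues of the adult. A lncRNA is a long transcript with no protein product. Some lncRNAs act in the nucleus on nearby genes, some bind proteins or miRNAs, and many carry snoRNA or miRNA genes in their introns. A small RNA library captures only short RNA, so a read at a lncRNA locus is a short piece of its transcript or a small RNA encoded within it, and these cannot be told apart here. The values below are the authors' normalized counts, which are reads multiplied by 1 factor per library, and they are not levels per transcript length. It is therefore not asked which locus has the higher level.

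The tissue labels were checked against tissue miRNAs. MIR133 of striated muscle was at 244661 to 373488 in the muscle libraries and at 115 to 717 in the livers, and the hepatic MIR194 and MIR148A summed to 40787 to 66109 in liver and 1311 to 2028 in muscle. Reads at lncRNA loci numbered 18344 to 45323 in control livers, 102095 to 284321 in BPA livers, 463009 to 579608 in muscle of controls and 629329 to 1085241 in muscle of BPA animals. The depth thus differed between the treatments without overlap in both tissues, and 1 read was worth 1.09 to 1.44 normalized counts in muscle of controls and 0.616 to 0.851 in that of BPA animals. The library codes ran from 73 to 76 in muscle of controls and from 77 to 97 in that of BPA animals, and the order of the codes cannot be told apart from the treatment.

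In muscle, LOC114117239 was several times higher in every BPA animal than in any control. Its normalized count was 70.7, 78.6, 70.5 and 66.1 in control muscle of animals 902, 908, 924 and 928. In BPA muscle it was 225, 401, 264 and 197 in animals 910, 918, 977 and 984. The groups did not overlap, and BPA animal 918 was the highest. The means were 71.5 ± 5.2 and 272 ± 90.2 (SD, n = 4 each), a ratio of 3.80, and the log2 fold change on the log2(value + 1) scale was 1.86 ± 0.24 (SE). These muscle values chose the locus and are given as a description, without a p-value. In bulk tissue, a change in the number of cells of a type and a change in RNA per cell cannot be told apart.

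The recovered reads of LOC114117239 also separated the groups in muscle. They numbered 53, 72, 51 and 46 in the controls and 265, 650, 373 and 264 in the BPA animals, that is 222 and 1552 reads in all. Counting error alone would give an SD of 9.68 normalized counts in control muscle and 14.1 in BPA muscle. The observed SD was 0.537 times that in controls and 6.40 times that in BPA animals. The controls were therefore no more spread than read sampling, whereas the BPA animals were more spread than it. Per 100000 lncRNA reads the locus took 9.52 to 12.4 reads in control muscle and 39.0 to 59.9 in muscle of BPA animals. Per 1000000 miRNA reads it took 97.5 to 129 and 420 to 622. Animal 918 remained the highest on both of these scales, and the groups did not overlap on either.

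**Figure D1:**
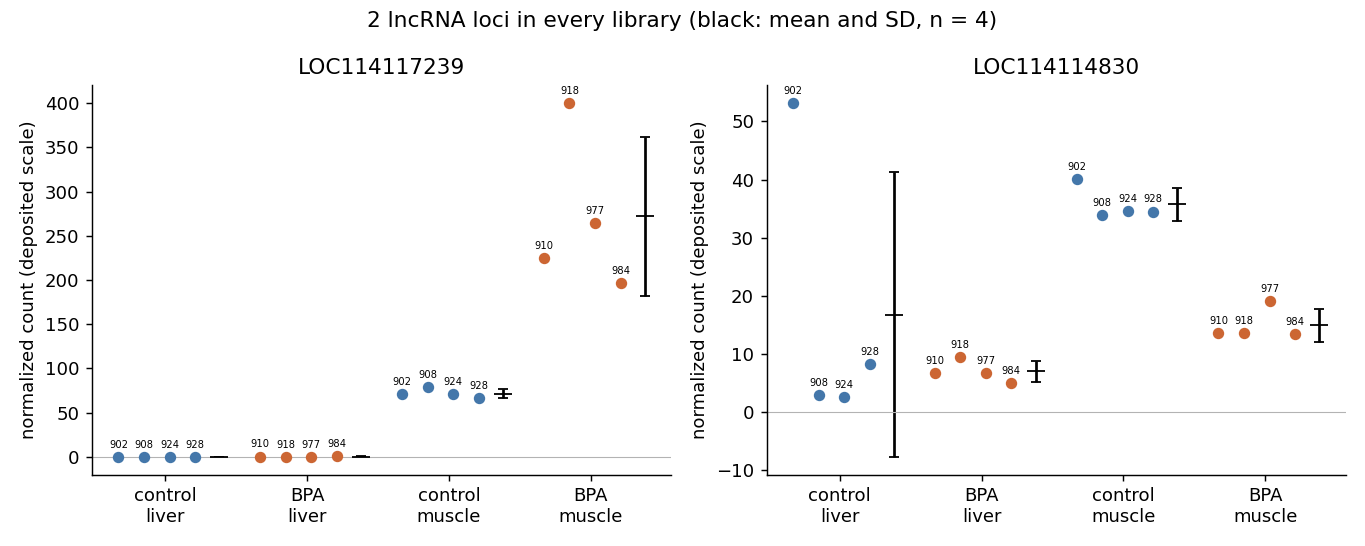
Normalized counts (deposited scale) of LOC114117239 on the left and LOC114114830 on the right in all 16 libraries. Each point is 1 library with its animal number (blue control, orange BPA), and black bars are the mean and SD of 4 libraries. LOC114117239 is at or near 0 in liver and at 197 to 401 in BPA muscle, while LOC114114830 is at 53.2 in the liver of control 902 and at 13.4 to 19.1 in BPA muscle.

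LOC114114830 was lower in muscle of every BPA animal than in any control. Its normalized count was 40.0, 33.8, 34.6 and 34.5 in the control muscles of 902, 908, 924 and 928. It was 13.6, 13.6, 19.1 and 13.4 in the BPA muscles of 910, 918, 977 and 984. The groups did not overlap, with animal 902 the highest control and animal 977 the highest BPA animal. The means were 35.7 ± 2.89 and 14.9 ± 2.81 (SD, n = 4 each), so controls were 2.39 times the BPA animals, and the log2 fold change was -1.22 ± 0.23 (SE). This contrast chose the locus as well, so these values too are a description.

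In muscle LOC114114830 had few reads, and its groups separated only after scaling. Before scaling it had 30, 31, 25 and 24 reads in the control muscles and 16, 22, 27 and 18 in the BPA muscles. These read numbers overlapped, since BPA animal 977 had more reads than controls 924 and 928. The BPA libraries were deeper, and on the deposited scale the groups separated. Pooled over libraries, 83 reads in BPA muscle against 110 in control muscle gave a ratio of 0.419 on the deposited scale. The share was 4.67 to 5.97 per 100000 lncRNA reads in the controls and 2.03 to 3.54 in the BPA animals. Per 1000000 miRNA reads it was 50.5 to 62.5 and 21.1 to 36.5. On both of these scales, too, the groups did not overlap. The observed SDs were 0.422 and 0.85 times what counting alone gives in control and BPA muscle, so no spread between animals beyond read sampling could be seen at this depth.

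**Figure D2:**
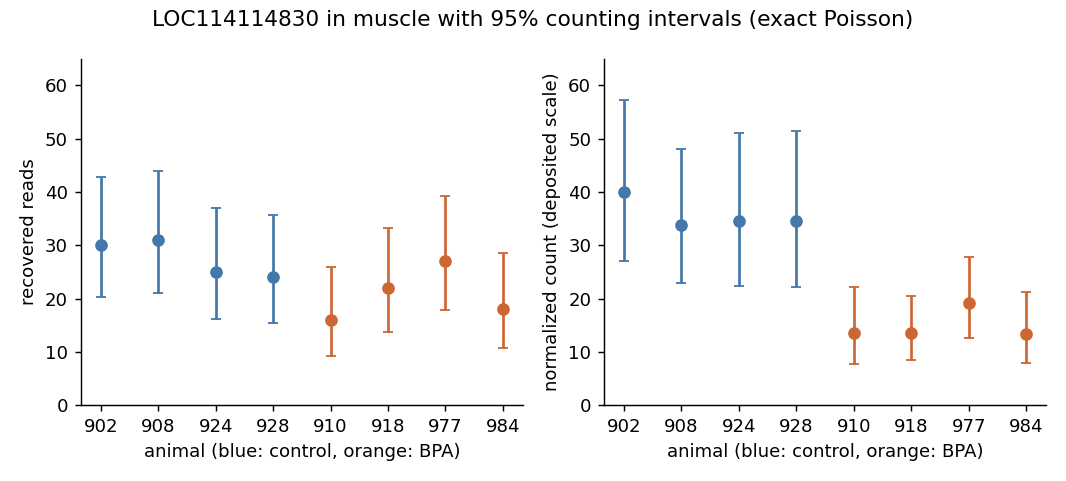
Recovered reads (left) and normalized counts on the deposited scale (right) of LOC114114830 in the 8 muscle libraries, with exact 95% Poisson intervals for counting error. The reads overlap between controls (24 to 31) and BPA animals (16 to 27), and the normalized counts do not (33.8 to 40.0 and 13.4 to 19.1).

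The 2 loci were set beside all lncRNA loci tested in muscle, of which few were called. Of 151 loci with a mean normalized count of at least 5, limma called 8 at a Benjamini-Hochberg (BH) adjusted p under 0.05, or 5.3%. Of these, 6 were higher (3.97%) and 2 lower (1.32%), and the median log2 fold change of all 151 was -0.02. Both loci are among the 8, and since they were chosen from this contrast nothing is read from that. How many of the 151 loci had groups without overlap was not counted, so nothing is read from the lack of overlap at these 2 either. The other 6 called loci comprised 5 that were higher, with log2 fold changes from 1.32 to 5.17, and 1 that was lower. LOC106990385 and LOC105616344 had the smallest p among the higher ones, and the lower one was LOC114112870. LOC114114830 was not called with TMM scaling, with scaling by total lncRNA reads, without a filter on low values or in a joint fit of both tissues, where its log2 fold changes were -0.90, -0.96, -1.22 and -1.22.

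**Figure D3:**
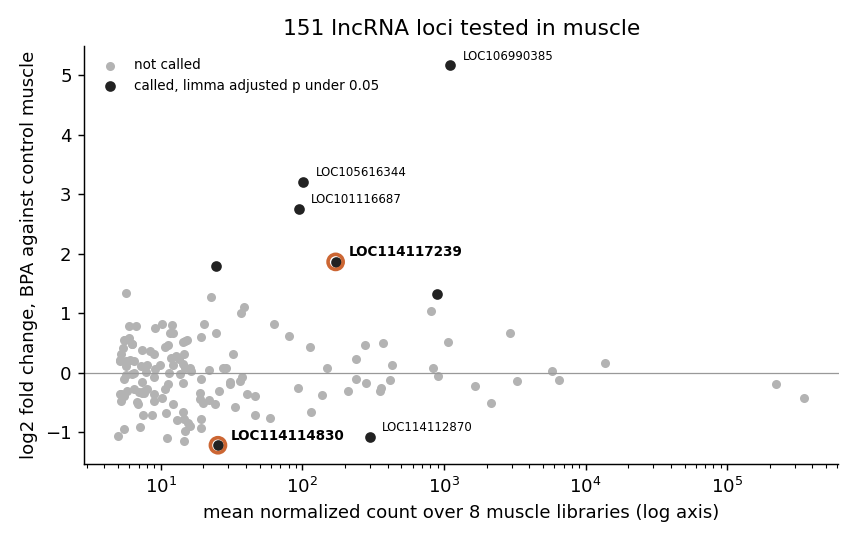
Log2 fold change of BPA against control muscle (vertical axis) and mean normalized count over the 8 muscle libraries (log axis) for 151 lncRNA loci. Black points are the 8 called loci and orange rings mark LOC114117239 at 1.86 and LOC114114830 at -1.22.

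Some other measures moved with the treatment in muscle. snoRNA reads per 100 miRNA reads were 0.587 to 0.692 in the controls and 1.30 to 2.67 in the BPA animals, without overlap. Animal 984, with the highest snoRNA share, had the lowest LOC114117239 of the BPA muscles. Of 7 lists of tissue and cell type miRNAs, 6 had a member in the miRNA table, and the summed levels of these 6 overlapped between control and BPA muscle. Each sum rested on 1 to 3 miRNAs. In liver 5 of the 6 overlapped, and the epithelial sum was 482 to 1367 in controls and 1504 to 1965 in BPA animals. The part of the depth and of the snoRNA share in the muscle values of either locus was not tested.

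Liver was not used to choose the loci, and there LOC114117239 was almost without reads. No read was found in the livers of the 4 controls or of BPA animals 918 and 977. The livers of BPA animals 910 and 984 had 1 read each, equal to 0.321 and 0.843 normalized counts. With a mean below 5 the locus was not tested in liver. Without the filter its log2 fold change there was 0.32 ± 0.28 (SE, limma BH-adjusted p = 0.5465 over 1890 loci), so a BPA effect was not detectable at this depth. A count of 0 over the 4 control livers allows up to 3 reads in the group, or 1.11 normalized counts.

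The tissue difference of LOC114117239 was large in both treatments. At its mean share of lncRNA reads in control muscle, 14.0 reads would be expected in the 132355 lncRNA reads of the 4 control livers, against 0 found. At its mean share in BPA muscle, 293 reads would be expected in the 616684 reads of the BPA livers, against 2 found. The shortfall in BPA livers thus rested on more expected reads. These livers were deeper, and the share in BPA muscle, by which the locus was chosen, was higher. Among controls, muscle was at least 64.8-fold higher on the deposited scale, with liver set to that floor of 3 reads over the group, and the exact 95% interval, which also covers the counting error of muscle, began at 52.2. Among BPA animals, the ratio of muscle to liver was 985, with a counting interval of 272 to 8142.

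Each tissue had been scaled alone by the authors, so tissue differences were also computed on a scale set over both tissues. On that scale the ratio to the floor in controls was 55.3, with an interval from 44.6, and the ratio in BPA animals 675 (187 to 5580). The log2 difference of muscle minus liver, averaged over the treatments, was 6.95 ± 0.22 as deposited and 6.71 ± 0.22 on the joint scale (SE, limma, all 16 libraries). The locus passed the filter on low values through muscle alone, so no p-value is given. All 8 muscle libraries lay above all 8 livers. These fitted differences depend on the added 1, because liver is near 0.

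In liver, LOC114114830 had reads in all 8 libraries, and no BPA effect passed the test. Its normalized count was 53.2, 2.91, 2.59 and 8.34 in the control livers of 902, 908, 924 and 928. In the BPA livers of 910, 918, 977 and 984 it was 6.74, 9.49, 6.77 and 5.06. The control liver of 902 lay far above all other livers, and the BPA livers lay within the range of the controls. The library code of the liver of 902 was also apart from those of the other control livers, which were consecutive. The means were 16.8 ± 24.4 and 7.01 ± 1.83 (SD, n = 4 each), and the log2 fold change was -0.22 ± 0.74 (SE, limma BH-adjusted p = 0.8370). In liver 44 of 124 lncRNA loci were called, or 35.5%. Without control 902 the log2 fold change turned to 0.63 (limma adjusted p = 0.3346, with 0.2182 to 0.9307 over the alternatives). With all 8 livers kept, it turned to 0.12 with TMM scaling and to 0.15 with a single size factor for all 4 tables. The direction in liver thus depends on 1 library and on the scaling, and the locus did not pass under any of the 19 alternatives. Its log2 fold change was -1.23 with edgeR and -1.25 with DESeq2 on the recovered reads.

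The depth in liver limited this comparison. The reads were 34, 2, 2 and 5 in the control livers and 21, 12, 10 and 6 in the BPA livers. The 34 reads of control 902 came from the shallowest library, where the locus took 185 of every 100000 lncRNA reads, against 4.41 to 18.4 in the other control livers. The exact Poisson interval of that library was 36.9 to 74.4 normalized counts, and those of the other control livers reached at most 19.5. Its value was therefore beyond counting error, while the other 3 control livers overlapped with the BPA livers.

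On the deposited scale, the levels of LOC114114830 descended from control muscle through control liver and BPA muscle to BPA liver by their means. Control liver overlapped with both of its neighbours in that order because of animal 902, with a median of 5.62. BPA muscle (13.4 to 19.1) lay above BPA liver (5.06 to 9.49) without overlap on that scale, on which each tissue was scaled alone. By share of lncRNA reads BPA liver was the higher. At the mean share of BPA muscle 16.6 reads would be expected in the BPA livers, against 49 found. Muscle was higher by 1.50 ± 0.42 log2 units over both treatments on the deposited scale, and by 1.13 ± 0.43 on the joint scale (SE, all 16 libraries, limma BH-adjusted p = 0.0046 and 0.0293, with 9.41e-06 to 0.0306 over the alternatives). Muscle was above liver in 7 of 8 animals as deposited. Tissue differences were common among lncRNA loci, with 97 of 146 called on the deposited scale, or 66.4%, and 95 of 140 on the joint scale, or 67.9%. Scaled by total lncRNA reads, the difference turned to -1.51 and was called in that direction (limma adjusted p = 0.0177). The range of adjusted p over the alternatives includes this one, so the direction depends on the scale. For LOC114117239 the order was BPA muscle, control muscle and then the 2 liver groups, and only the livers overlapped.

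The BPA effect in muscle minus that in liver was 1.54 ± 0.44 for LOC114117239 and -0.99 ± 0.84 for LOC114114830 (log2, SE, 16 libraries). It contains the muscle contrast that chose the loci, so it is a description and was not tested. For LOC114117239 its size also depends on the added 1.

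Across the 8 muscle libraries, the lncRNA locus most like LOC114114830 was LOC114112870, the other locus called lower in BPA muscle. Pearson's r of their log2(value + 1) was 0.95 over the 8 muscle libraries, the highest of 150 candidates, and 0.92 over the 8 livers. Values of LOC114112870 were 456, 394, 348 and 395 in the control muscles of 902, 908, 924 and 928. They were 157, 146, 313 and 174 in the BPA muscles of 910, 918, 977 and 984. Animal 902 was the highest control and animal 977 the highest BPA animal, as for LOC114114830. The 8 muscle libraries share their tissue and their treatment contrast, and r was 0.81 within the 4 control muscles and 0.97 within the 4 BPA muscles. LOC114112870 was picked as the best match of 150 over these same libraries. Its likeness in muscle, also within the groups, is therefore a description. The livers were not used to pick it.

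Both loci were also exceptional in the same liver. LOC114112870 stood at 1172 in the liver of control 902, against 42.2, 18.1 and 71.7 in the livers of controls 908, 924 and 928. BPA livers lay between 38.8 and 80.1. Without the liver of 902, r over the other 7 livers was 0.56. Of the 124 lncRNA loci tested in liver, 3 were over 5 times the next control in the liver of 902. These were LOC114112870, LOC114114830 and LOC105607667, the last named after its value was seen, at 26.6 against at most 3.88.

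In muscle the reads of the pair kept a nearly fixed proportion, which is a description, since LOC114112870 was picked for its likeness over these libraries. For every 100 reads of LOC114112870 there were 9.0 ± 0.618 reads of LOC114114830 in control muscle and 7.94 ± 1.38 in BPA muscle (SD, n = 4 each). The range over all 8 muscles was 6.11 to 9.92, and animal 977 was the lowest. In liver the proportion varied more, from 4.54 to 14.3 in controls and from 6.32 to 24.5 in BPA animals, on 2 to 34 reads of LOC114114830. Whether the pair share reads through similar sequence was not tested.

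**Figure D4:**
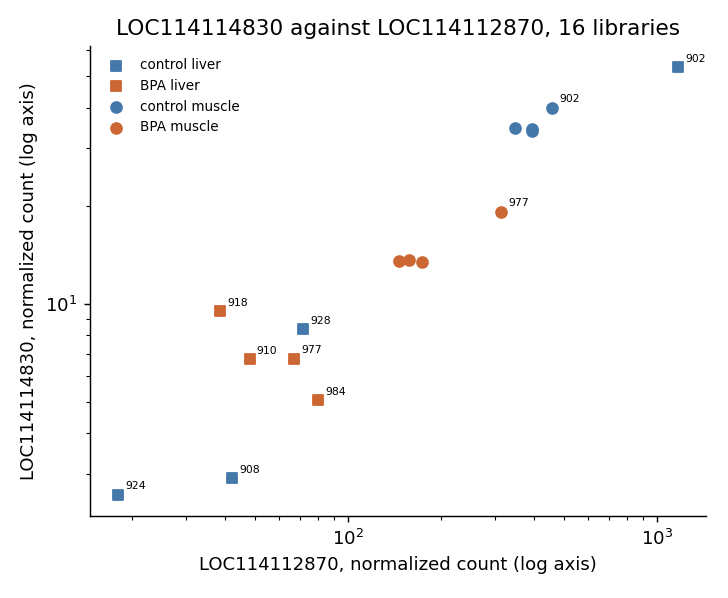
Normalized counts of LOC114114830 against those of LOC114112870 in 16 libraries, both on log axes (circles muscle, squares liver, blue control, orange BPA). Muscle libraries lie along a line with animals 902 and 977 at the top of their groups, and the liver of control 902 is the highest point at 1172 and 53.2.

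The next most like LOC114114830 were LOC105610869 and LOC105616860, with r of 0.86 for both over the 8 muscles and of 0.39 and -0.16 over the livers. LOC105610869 was at 15.2 to 24.0 in muscle of controls and 5.97 to 13.6 in that of BPA animals. LOC105616860 was at 8.29 to 13.1 and 4.48 to 9.93, so its groups overlapped. Neither was among the called loci of muscle.

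The loci most like LOC114117239 in muscle were LOC105616344, LOC106990385 and LOC101116687, with r of 0.96, 0.96 and 0.93 over the 8 libraries. All 3 were among the 6 loci called higher in BPA muscle, with log2 fold changes of 3.21, 5.17 and 2.75. An r over both groups reflects the treatment contrast, by which LOC114117239 was chosen, so nothing is read from these calls. LOC106990385 was at 53.5 to 68.1 in muscle of controls and 1781 to 2428 in that of BPA animals. LOC105616344 was at 17.5 to 20.1 and 168 to 203, and LOC101116687 at 19.3 to 35.9 and 136 to 181. Within BPA muscle, animal 984 was the lowest for LOC114117239 and the highest for LOC106990385 and LOC101116687. For LOC106990385 animal 918 was close to it, at 5.31 against 5.35 log2 units above the control mean. LOC105616344 was highest in animal 918, as LOC114117239 was.

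In liver these 3 loci had mean normalized counts of 143, 1454 and 154 over the 8 libraries. Their r with LOC114117239 over the livers was -0.51, -0.26 and -0.34. An r over livers in which LOC114117239 has 0 or 1 read carries little information. RefSeq's gene table for the assembly ARS-UI_Ramb_v3.0 of sheep lists LOC101116687 as a transcribed pseudogene that holds the snoRNA genes LOC114109764 and LOC114109765, so its reads cannot be assigned to the host transcript. In the snoRNA table LOC114109764 was at 0 to 1.58 in the control muscles and at 2.62 to 13.4 in the BPA muscles. In control muscle 1 snoRNA read was worth 1.21 to 1.62 normalized counts, so LOC114109764 was near the floor there. LOC114109765 was at 8.48 to 19.1 in control muscle and at 60.1 to 72.8 in BPA muscle. The snoRNA reads as a whole were also higher in BPA muscle. How many other snoRNAs separated the groups was not counted, so nothing is read from these 2.

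**Figure D5:**
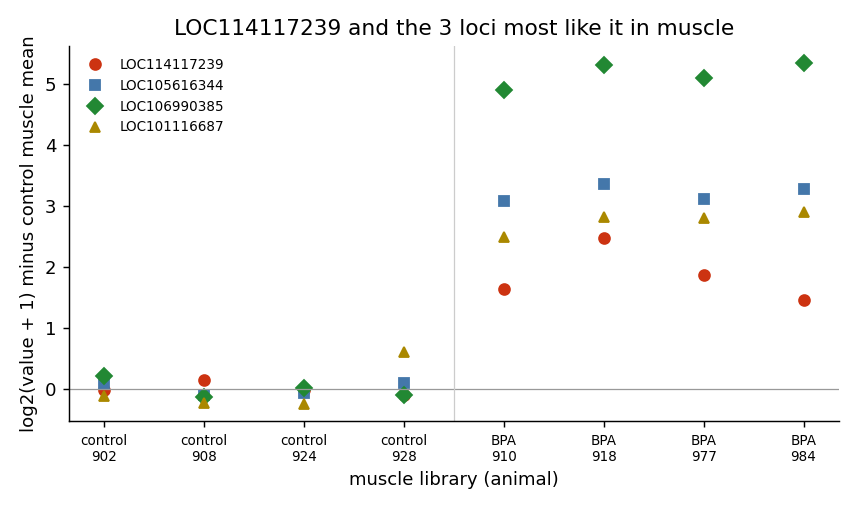
Log2(value + 1) minus the mean of the 4 control muscles for LOC114117239 and the 3 loci most like it, in the 8 muscle libraries. In controls the loci lie between -0.25 and 0.61, and in BPA muscle LOC114117239 lies lowest, between 1.45 and 2.47.

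The 2 chosen loci moved in opposite directions across muscle, with r of -0.93 over the 8 libraries, which their choice fixes. Within the 4 controls r was -0.19 and within the 4 BPA animals 0.04. Animal 918, with the highest LOC114117239, had 13.6 for LOC114114830, close to animals 910 and 984. Animal 977, with the highest LOC114114830 of the BPA muscles, was second for LOC114117239.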

How the data were processed

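Tools named in the submitters' processing notes, without roles, are featureCounts 1.6.1, STAR 2.6.0c and cutadapt 3.2. The build, the annotation and the normalization tool were not given in the sources used here. In 4 tables the values that the authors deposited are a signal, normalized counts equal to reads times 1 step per library. Among the lncRNAs, 100% of values above 0 were whole multiples of the step (tolerance 0.001), which gave the recovered reads. The median ratio to the tissue's mean profile was 1.04 in every liver and 1.03 in every muscle library, so each tissue was scaled alone.

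The test was that of limma 3.58.1 with its trend option (R 4.3.3), on log2(value + 1), for loci whose mean value over the fitted libraries was at least 5, two-sided, with BH adjustment within the lncRNA table and a threshold of 0.05. edgeR 4.0.16 and DESeq2 1.42.0 on recovered reads, other scalings, pseudocounts and filters, and leaving out each library were alternatives. Intervals and floors cover counting error only. Every pair of libraries of a group differed beyond sampling noise (lncRNA reads, chi-square per degree of freedom at least 4.56), so none is a copy of another. That the animals are separate rests on the labels.

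The replicate number is the animal, so it pairs liver with muscle. Deviations of the pairs from their group means correlated by -0.28 to 0.18 across 99 loci, and in 0 of 8 animals was the own muscle the closest. Named besides the 2 loci are, for each, the 3 lncRNA loci of highest r in muscle, and the loci called in muscle with the smallest p. The members and lists were chosen with earlier results of these data known. Neighbouring genes, which the naming rule also covered, are not reported here.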

Additional observations from a re-analysis of the deposited data

Results flagged for a closer look

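Of 7 groups of 4 libraries examined over both loci, 3 held a library that stood apart, all for LOC114114830, with the gap to its nearest neighbour exceeding 0.829 of the range of the group (Dixon's 95% limit, which chance passes in about 1 of 20 groups). For LOC114117239 no library did. The liver of control 902 stood at 53.2 normalized counts with a gap of 0.886 of the range. The muscle of the same animal stood at 40.0, also with 0.886, and the muscle of BPA animal 977 at 19.1 with 0.968. The exact Poisson interval of the liver of 902 was 36.9 to 74.4 and holds none of the other control livers. The intervals of the muscles of 902 (27.0 to 57.2) and 977 (12.6 to 27.9) hold all other libraries of their groups. LOC114112870 was highest in its group in the same 3 libraries, at 1172, 456 and 313.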

How the results depend on the processing

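In muscle, the log2 fold change of LOC114117239 ranged from 1.66 to 2.20 and that of LOC114114830 from -1.33 to -0.90 over 20 alternatives each, and leaving out single libraries gave 1.66 to 2.0 and -1.33 to -1.16. In liver, LOC114114830 turned from -0.22 to 0.12 with TMM scaling and to 0.15 with a single size factor for all 4 tables, a setting added once the data had been seen. It ranged from -0.68 to 0.63 over the libraries left out, the highest without control 902. With scaling by the miRNA table it was -1.15. Its tissue difference turned from 1.50 to -1.51 with scaling by total lncRNA reads, where it was called lower in muscle. The cause was not tested. With the replicate block of animals the tissue difference of LOC114114830 was 1.50 (limma adjusted p = 0.0056), and the block did not change its call. Loci called in muscle numbered 5 in the joint fit of both tissues against 8, and 7 to 8 without single libraries. TMM and total-read scaling each gave 8 higher and 0 lower. In liver 24 were called at a mean of at least 20 and 27 to 49 without single libraries, the lowest without control 928. Liver calls split into 20 higher and 24 lower as deposited, 32 and 19 with TMM, 5 and 52 with the miRNA table, 6 and 46 with total reads, and 36 and 20 with 1 size factor. Between tissues 183 were called with no filter, 43 at a mean of at least 20, and 170 with total reads (6 higher and 164 lower, against 65 and 32 as deposited, 50 and 43 with TMM and 47 and 48 on the joint scale), and 83 to 96 without single animals. At a mean of at least 20, LOC114114830 was not in the liver or tissue fit, so no value was computed there.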
